A study of Homo sapiens with 6 samples.

Results

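Ribosomal protein pseudogenes are copies of ribosomal protein genes, and 70 of them held enough reads to be described in A549 cells, a human lung adenocarcinoma line. They were chosen by name and by count. A candidate carried the symbol of a ribosomal protein gene followed by P and a number in the authors' gene table and lay on chromosomes 1 to 22 or X. It became a member with at least 100 read counts summed over the 6 libraries. Of 766 candidates, 70 met the threshold (9.14%), 271 had 1 to 99 counts and 425 had 0 counts. The table lists 62729 genes in all. RNA was taken 72 h after reverse transfection with siRNA at 10 nM. The siRPS19 group received a siGENOME SMARTpool against RPS19, a gene of the small ribosomal subunit, and the siOTP group an ON-TARGETplus non-targeting control. Each group had 3 libraries, labelled as biological replicates. Reagent line and target differ together between the groups and cannot be told apart, and the cells are 1 line without an untransfected group.

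Ribosomal protein genes encode the protein parts of the large (RPL) and small (RPS) ribosomal subunits and are among the most strongly expressed genes of growing cells. Their spliced mRNAs have been copied back into the genome many times, which left intronless processed pseudogenes on many chromosomes. Most lack a promoter of their own and a usable reading frame, although some are transcribed, often from a neighbouring promoter or inside another gene. Because a copy can be nearly identical to its parent gene, a short sequencing read from the parent mRNA can be assigned to the copy, and the reverse.

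The sequences below show how close the copies are to their parents. Sequences were taken from GENCODE release 29 transcripts by gene ID, and 68 of the 70 members matched. Each line is 5′ to 3′, and capitals mark bases of the pseudogene that differ from the parent's coding sequence or are inserted. RPL41, the gene of the smallest ribosomal protein, and its copies are shown in full (75 coding bases) because they hold many of the counts and cannot be distinguished by these bases. Positions below are hg19, from the authors' table, for RPL41 chr12:56510370-56511727, for RPL41P1 chr20:21735866-21736171 and for RPL41P2 chr15:28560798-28561102.
RPL41: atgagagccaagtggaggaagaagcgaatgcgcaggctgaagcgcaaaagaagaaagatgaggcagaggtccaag
RPL41P1: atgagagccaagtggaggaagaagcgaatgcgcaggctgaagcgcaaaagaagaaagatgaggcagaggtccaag
RPL41P2: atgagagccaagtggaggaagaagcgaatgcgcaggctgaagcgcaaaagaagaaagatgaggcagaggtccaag
Neither copy differs from RPL41 in these bases.

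Copies of RPS2 and RPL5 are shown because a close and a more diverged copy of the same parent gave different values. RPS2 encodes a small-subunit protein near the entry of the mRNA channel. The stretch is the part aligned to coding bases 151 to 270 of the parent.
RPS2: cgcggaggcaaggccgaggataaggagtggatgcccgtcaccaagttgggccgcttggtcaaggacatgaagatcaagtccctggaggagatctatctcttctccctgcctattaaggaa
RPS2P46: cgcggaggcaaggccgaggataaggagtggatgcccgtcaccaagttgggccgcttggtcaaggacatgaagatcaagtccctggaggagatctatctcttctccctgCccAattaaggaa
RPS2P32: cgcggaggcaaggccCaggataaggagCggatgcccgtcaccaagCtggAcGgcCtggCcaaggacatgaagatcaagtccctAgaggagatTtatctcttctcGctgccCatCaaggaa
In this stretch RPS2P46 (chr17:19349246-19350169) has 1 mismatch and 1 inserted or missing base, and RPS2P32 (chr7:23530092-23530983) has 12 mismatches. Over the whole aligned coding part their identity to RPS2 is 98.6% and 87.3%.

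RPL5 encodes a large-subunit protein that carries the 5S rRNA and, together with RPL11, binds MDM2 when ribosome assembly fails.
RPL5: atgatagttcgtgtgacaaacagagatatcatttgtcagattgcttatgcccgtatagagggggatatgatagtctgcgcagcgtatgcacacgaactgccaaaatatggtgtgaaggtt
RPL5P1: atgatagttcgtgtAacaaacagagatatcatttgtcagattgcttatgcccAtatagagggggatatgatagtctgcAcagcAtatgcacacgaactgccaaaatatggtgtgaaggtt
RPL5P8: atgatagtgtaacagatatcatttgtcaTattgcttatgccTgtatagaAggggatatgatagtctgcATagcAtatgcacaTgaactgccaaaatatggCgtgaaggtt
RPL5P1 (chr15:25154076-25154972) has 4 mismatches here and RPL5P8 (chr2:215145362-215146176) has 8 mismatches and 10 inserted or missing bases. Their overall identities to RPL5 are 96.1% and 83.7%.

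RPS23, whose protein sits at the decoding centre of the small subunit, and RPS23P8 (chrX:70182814-70183143) are shown because this close copy departed furthest below its parent.
RPS23: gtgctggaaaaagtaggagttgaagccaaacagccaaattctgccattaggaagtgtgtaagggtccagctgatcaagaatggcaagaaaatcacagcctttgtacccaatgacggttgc
RPS23P8: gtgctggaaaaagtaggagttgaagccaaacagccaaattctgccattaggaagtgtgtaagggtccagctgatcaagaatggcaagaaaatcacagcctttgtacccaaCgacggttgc
RPS23P8 has 1 mismatch here and an identity of 99.1% over the 76.2% of the RPS23 coding sequence that it covers. How the authors treated reads that map to several places is not given in the sources used here, and the deposited entry for reads with more than 1 alignment is 0 in every library. Reads of a pseudogene and of its parent can therefore have been split between them, and each member's value is uncertain in that sense.

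The libraries held 20814110 to 23889372 counts on genes. RPS19 fell 35.3-fold, from 30731, 27124 and 30387 counts in the siOTP libraries to 1159, 830 and 1073 in the siRPS19 libraries. Reads outside genes made up 3.39% to 3.85% of entries in siOTP and 5.13% to 6.36% in siRPS19. Their part in the results below was not tested. All 6 epithelial markers examined reached a mean of 1 CPM (counts scaled to library depth with TMM factors), with a summed level of 5222 to 5647 CPM in siOTP and 3394 to 3786 CPM in siRPS19. None of 5 alveolar markers did, and 2 of them were at 0. Of 8 markers of blood, vessel and connective tissue cells found, 2 reached 1 CPM, 1 was at 0, and their summed level was 35.2 to 42.2 CPM in siOTP and 14.6 to 20.0 CPM in siRPS19.

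The 70 members were copies of 39 parent genes. Of these members, 47 were copies of 27 large-subunit genes and 23 of 12 small-subunit genes, and they lay on 20 chromosomes. For 23 parent genes there was 1 member and for 16 there were at least 2, while RPL13A, RPS7, RPS4X and RPS2 had 4 each. The members' summed counts ran from 119 to 27155 with a median of 578, and 38 members had at least 500. The 8 members with the most counts held 59.8% of the 165907 counts on members. Just inside the threshold were RPS11P5 with 119 counts, RPS2P32 with 121, RPS7P14 with 122 and RPL36AP21 with 138. Just outside were RPS20P22 with 86, RPL34P26 with 85, RPS18P9 with 84 and RPL7P57 with 73.

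Most members held a small share of their parent's counts. The share ran from 0.094% for RPS11P5 to 50.0% for RPL23AP79, with a median of 1.51%. It was over 10% for 11 members and under 1% for 26. Added up, the members' counts were 6.98%, 6.86% and 6.90% of their parents' counts in the siOTP libraries and 6.65%, 6.65% and 6.70% in the siRPS19 libraries. The groups did not overlap, with means of 6.92% ± 0.058 and 6.67% ± 0.032 (SD, n = 3 each), and the exact two-sided permutation p was 0.1, the smallest that 3 against 3 libraries allow. Per length, in the authors' deposited table, 6 members had a higher RPKM (reads scaled to transcript length and depth) than their parent in siOTP. RPL41P1 was listed there at 809 RPKM against 767 for RPL41, and RPL6P27 at 99.4 against 55.5 for RPL6. RPS23P8 was listed in the authors' deposited table at 145 RPKM against 35.7 for RPS23, RPS15AP1 at 34.9 against 16.6 for RPS15A, and RPL36AP21 at 3.68 against 3.16 for RPL36A.

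After siRPS19, 56 of the 70 pseudogenes fell, 0 rose and 14 did not pass the test (edgeR's quasi-likelihood test, Benjamini-Hochberg adjusted p under 0.05 over 17171 genes). All 70 members were among the tested genes, and 69 had at least 50 counts in each group. The share that fell was 80.0%, against 38.9% of all tested genes, and 39.5% of all tested genes rose. No member rose at an unadjusted p under 0.05 either, and DESeq2 and limma-voom each called 0 higher. The members' median log2 fold change was -0.71, against 0.02 over all tested genes, and their range was -1.70 to 0.03. In 59 members each siRPS19 library lay below each siOTP library, a pattern seen in 39.6% of all tested genes. The choice of scale moved these counts. Without TMM, on library totals, the median of all genes shifted up by 0.29, with 4734 genes lower and 9114 higher instead of 6673 and 6778. On that scale 39 members fell and 1 rose, RPL23AP7 with a log2 fold change of 0.31 (adjusted p = 0.013, edgeR). In the authors' deposited table, which has no TMM factors, the group RPKM of 59 members and of 36 parents was lower in siRPS19. In bulk RNA, fewer cells carrying a transcript and less of it per cell cannot be told apart.

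**Figure D1:**
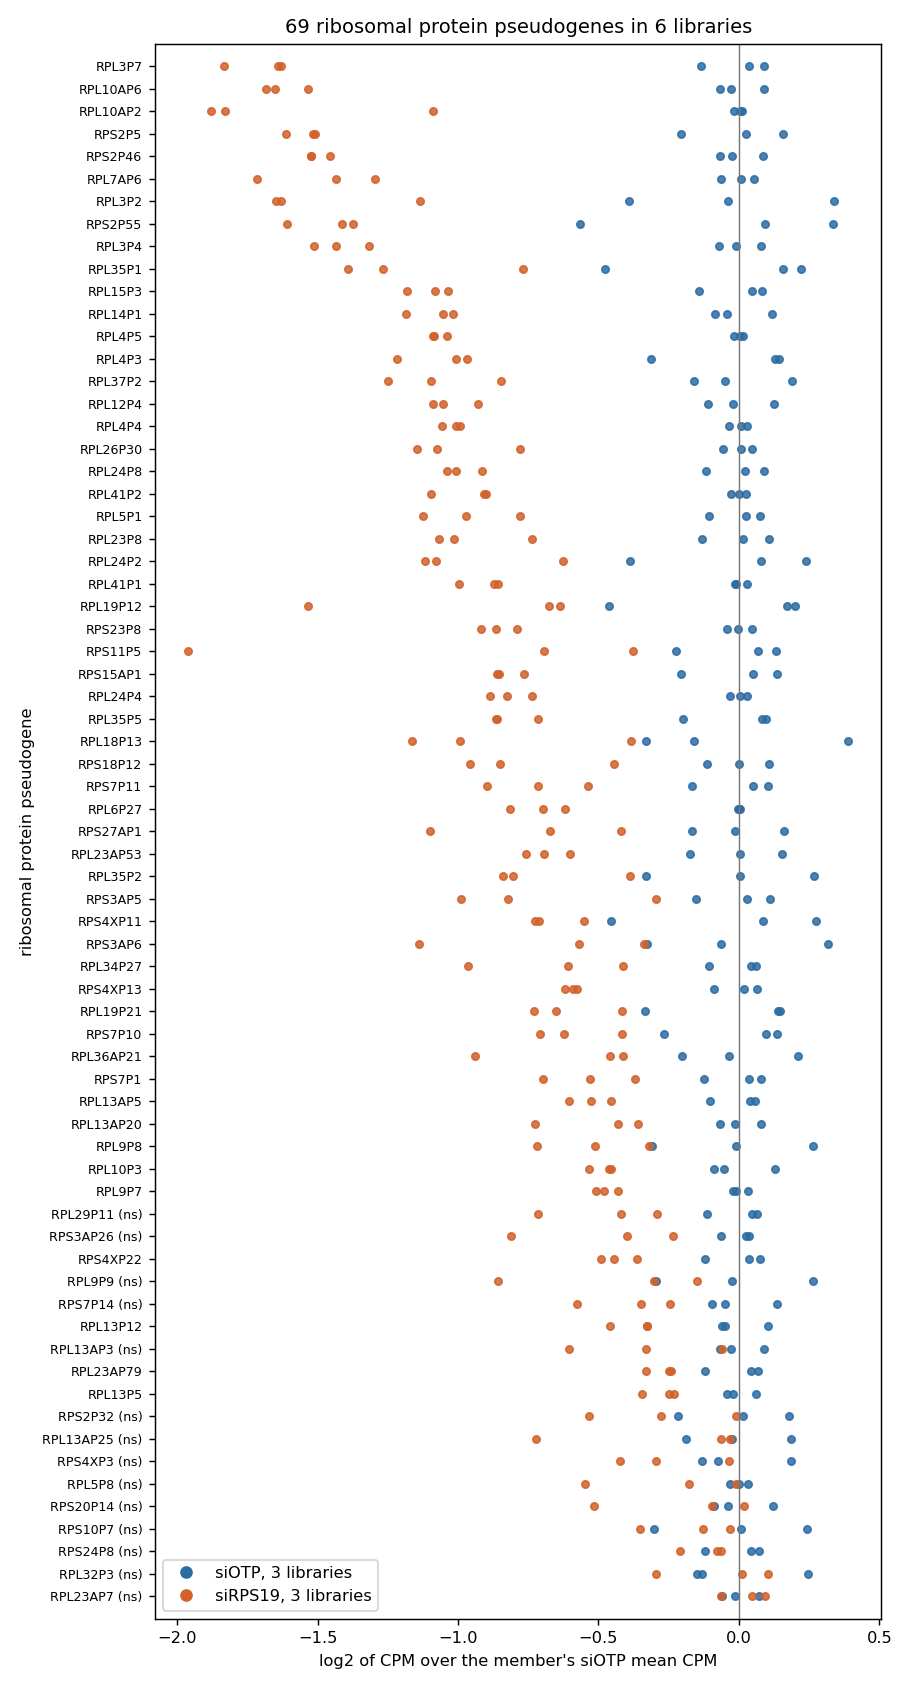
Each row is 1 of 69 of the pseudogenes and each point 1 library; the x axis is log2 of the TMM-normalised CPM over that pseudogene's siOTP mean. Rows are ordered by fold change from RPL3P7 (-1.70) to RPL23AP7 (0.03), ns marks the 14 that did not pass the test, and in 58 rows the siRPS19 points all lie left of the siOTP points.

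Copies of large- and of small-subunit genes were both mostly lower. Of the 47 RPL copies 40 fell (median log2 fold change -0.81), and of the 23 RPS copies 16 fell (median -0.65). Depth moved with the calls: 34 of 38 members with at least 500 counts fell (median -0.82), against 22 of 32 members with fewer (median -0.65). Of the members that fell, 17 were lower by at least 2-fold. The parent genes themselves fell in 38 of 39 cases, with a median log2 fold change of -0.72, and 0 rose (0 at an unadjusted p under 0.05, and 0 by DESeq2 or limma-voom). On library totals 35 of the parents fell and 2 rose, RPS20 and RPS23, and with upper quartile scaling 35 fell and 1 rose, RPS20. Over all genes library totals gave 4734 lower and 9114 higher, and upper quartile scaling 5505 and 8187. Of all 78 cytosolic ribosomal protein genes other than RPS19, 76 fell, with a median of -0.71, and 2 did not pass the test.

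The most counted member was RPL41P1 (ENSG00000227063). Its level was 272, 272 and 280 CPM in the siOTP libraries and 138, 150 and 152 CPM in the siRPS19 libraries. The groups were far apart, with means of 275 ± 4.55 and 146 ± 7.60 CPM (SD, n = 3), and RPL41P1 fell 1.88-fold (log2 fold change -0.91 ± 0.04 SE, edgeR adjusted p = 3.84e-14). Its parent RPL41 changed by -0.93 ± 0.05. RPL41P2, which lies inside HERC2, was at 105, 103 and 101 CPM in siOTP and 48.2, 55.2 and 55.0 CPM in siRPS19, a fall of 1.95-fold.

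RPL4 encodes a large-subunit protein that lines the exit tunnel, and it had the most counts of all parents. Its copy RPL4P4 (chr3:185135283-185136566) was at 153, 158 and 160 CPM in siOTP and 75.5, 79.0 and 78.2 CPM in siRPS19. RPL4P5 (chr9:7477045-7478320) was at 107, 106 and 105 CPM in siOTP and 49.9, 50.0 and 51.5 CPM in siRPS19. Both fell by about as much as RPL4, with log2 fold changes of -1.02 and -1.07 beside -1.04. The other copy, RPL4P3, with 322 counts, changed by -1.06.

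RPL13P12 (chr17:17286691-17287326), a copy of the large-subunit gene RPL13, fell less. It was at 94.0, 93.5 and 105 CPM in siOTP and 70.9, 77.6 and 77.5 CPM in siRPS19, which is 1.29-fold lower and close to RPL13 (-0.37 against -0.45 on the log2 scale). RPL6P27 (chr18:6462143-6463014) was at 96.0, 95.8 and 96.1 CPM in siOTP and 54.5, 59.2 and 62.5 CPM in siRPS19, a fall of 1.63-fold. RPL13AP5 (chr10:98510045-98510675) was at 81.6, 74.1 and 82.7 CPM in siOTP and 52.3, 58.0 and 55.1 CPM in siRPS19, a fall of 1.44-fold. In none of these most counted members did the groups overlap.

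The 6 members that fell most were copies of parents that also fell far. RPL3P7 (ENSG00000225093, chr6:108325561-108326772), a copy of RPL3, whose protein reaches towards the peptidyl transferase centre, was at 6.86, 5.88 and 6.60 CPM in siOTP and 1.81, 2.08 and 2.07 CPM in siRPS19. It fell 3.25-fold (log2 fold change -1.70 ± 0.14 SE, edgeR adjusted p = 1.04e-09), against -1.51 for RPL3. RPL10AP6 (chr3:61728129-61728780) was at 21.3, 19.1 and 19.6 CPM in siOTP and 6.92, 6.24 and 6.37 CPM in siRPS19, a fall of 3.07-fold. The other copy of RPL10A, RPL10AP2 on chromosome 8, held 336 counts and fell 2.95-fold, and RPL10A itself had a log2 fold change of -1.56. RPS2P5 (chr12:118683877-118684807) was at 16.1, 14.7 and 12.5 CPM in siOTP and 5.08, 4.73 and 5.05 CPM in siRPS19, a fall of 2.92-fold. RPS2P46 was at 27.2, 24.5 and 25.3 CPM in siOTP and 8.92, 9.37 and 8.94 CPM in siRPS19, a fall of 2.83-fold. RPL7AP6 (chr14:70352057-70352869), a copy of the large-subunit gene RPL7A, was at 8.87, 8.46 and 9.18 CPM in siOTP and 3.27, 2.69 and 3.60 CPM in siRPS19, a fall of 2.76-fold. The siRPS19 libraries of these 6 were all below the siOTP libraries.

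The 14 members that did not pass the test had log2 fold changes from -0.47 to 0.03, and 10 of them had under 500 counts. The 4 with more were RPS24P8 (-0.12 ± 0.08), RPS20P14 (-0.19 ± 0.12), RPL32P3 (-0.04 ± 0.12) and RPL23AP7 (0.03 ± 0.11, SE). RPS24P8 and RPS20P14 are copies of 2 of the parents that changed least, RPS24 (-0.21 ± 0.04) and RPS20 (0.01 ± 0.04). RPL32P3 and RPL23AP7 are copies of parents that fell, and they are described below.

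To compare each pseudogene with its parent without a library scale, the log2 ratio of their counts was taken within each library. The difference of this ratio between the groups, siRPS19 minus siOTP, is 0 where both changed by the same factor. Its median over the 70 pairs was 0.01, and the median of its absolute size was 0.12. In 51 pairs it was within 0.25, a factor of 1.19. The ratio did not overlap between the groups in 15 of 70 pairs (21.4%), against 85.8% when every tested gene is set against the same parents. The 85.8% covers genes of any depth and is not matched to the members' counts. Of the 38 pairs with at least 500 counts, 11 did not overlap (28.9%). In 4 of the 15 the pseudogene was relatively lower in siRPS19 and in 11 relatively higher. The share over every tested gene is not split by direction. The parents' median log2 fold change was -0.72, against 0.02 over all tested genes. The exact two-sided permutation p of a single pair cannot go below 0.1, and each of the 15 reached it. With libraries paired by replicate number, 24 pairs had the same sign in all 3 pairs of libraries. An exact sign-flip test on 3 pairs cannot give a p below 0.25. No share over all tested genes is given for this count or for those with a library left out, so they cannot be weighed against it. Leaving out a library made overlap rarer: 27 pairs did not overlap when siOTP replicate 1 was left out, 24 when siOTP replicate 2 was, and 24 when siRPS19 replicate 1 was. Across the 70 pairs the log2 fold changes of pseudogene and parent had a Pearson r of 0.75 and a Spearman rho of 0.69. Across the 38 with at least 500 counts r was 0.83. These describe genes in the same 6 libraries, copies of 1 parent share its value, and shared reads enter both axes.

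**Figure D2:**
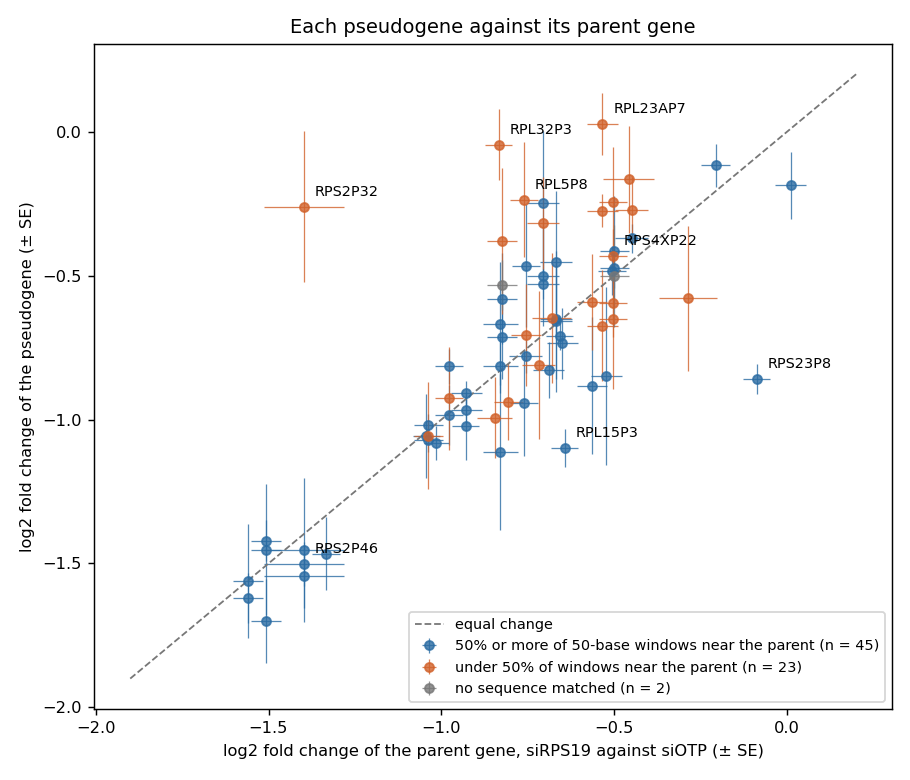
Each point is 1 pseudogene with its log2 fold change (y axis) against that of its parent gene (x axis), siRPS19 against siOTP, with SE bars and colours for the share of 50-base windows near the parent; the dashed line marks equal change. Most points lie near the line, RPS23P8 and RPL15P3 lie below it, and RPS2P32, RPL32P3 and RPL23AP7 lie above it.

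Among copies that stayed with their parents, RPL41P1 had log2 ratios to RPL41 of -1.77, -1.75 and -1.74 in siOTP and -1.71, -1.75 and -1.74 in siRPS19. The groups overlapped, with a difference of 0.02 ± 0.02 (SE). RPL4P4 had ratios to RPL4 of -4.26, -4.18 and -4.20 in siOTP and -4.19, -4.18 and -4.22 in siRPS19, a difference of 0.02 ± 0.03. RPL41P2 (-0.04 ± 0.02) and RPL4P5 (-0.03 ± 0.03) also overlapped. RPL13P12 (0.08 ± 0.03), RPL6P27 (-0.05 ± 0.03) and RPL13AP5 (0.18 ± 0.03) are among the 15 pairs that did not overlap. The differences of RPL13P12 and RPL6P27 were below the median absolute size of 0.12, and that of RPL13AP5 was above it.

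RPS23P8 (ENSG00000230629) departed furthest below its parent. Its level was 54.5, 51.3 and 52.7 CPM in siOTP and 27.9, 30.5 and 29.0 CPM in siRPS19, so its groups were well separated and it fell 1.81-fold (log2 fold change -0.86 ± 0.05 SE, edgeR adjusted p = 6.10e-12). RPS23 (chr5:81569177-81574396) was at 162, 165 and 172 CPM in siOTP and 151, 159 and 160 CPM in siRPS19. Its log2 fold change was -0.09 ± 0.04 (edgeR adjusted p = 0.0496), and on library totals 0.20. The log2 ratio of RPS23P8 to RPS23 was -1.57, -1.69 and -1.71 in siOTP and -2.44, -2.38 and -2.46 in siRPS19, a difference of -0.77 ± 0.05. RPS23 overlaps ATG10, an autophagy gene, in the annotation, and reads in such an overlap may be counted for neither gene or for the other one. The part of this overlap in the difference was not tested. Overlap with another gene is also annotated for other parents. Among them are RPL4 and RPL10, whose copies stayed close, and RPL15, whose copy departed. The extent of these overlaps was not examined.

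RPL15P3 (chr6:12514342-12515006), a copy of the large-subunit gene RPL15, was the next lowest pair that did not overlap. It was at 47.3, 41.5 and 48.5 CPM in siOTP and 20.2, 21.6 and 22.3 CPM in siRPS19, and its log2 ratio to RPL15 differed by -0.45 ± 0.08. RPL15 overlaps NKIRAS1 in the annotation and changed by -0.64, against -1.10 for RPL15P3. The other 2 relatively lower pairs were RPL3P7 (-0.18 ± 0.07) and RPL6P27, given above. RPS11P5 had a difference of -0.45 ± 0.47 from 119 counts, and its groups overlapped. RPS23P8 and RPL15P3 are both over 99% identical to the parent in the aligned coding part, and RPS11P5 is 94.8% identical.

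RPS2P32 (ENSG00000232818) departed furthest above its parent, on few reads. It held 18, 20 and 22 counts in siOTP and 18, 23 and 20 in siRPS19, and its log2 fold change of -0.26 ± 0.26 (SE) did not pass the test. RPS2 was at 229, 306 and 262 CPM in siOTP and 99.3, 105 and 98.5 CPM in siRPS19 (log2 fold change -1.40 ± 0.11). The log2 ratio of RPS2P32 to RPS2 was -8.01, -8.20 and -7.82 in siOTP and -7.13, -6.68 and -6.86 in siRPS19, a difference of 1.12 ± 0.17. The groups did not overlap. RPS2P46, with 1 mismatch where RPS2P32 has 12 in the stretch printed above, had a difference of -0.11 ± 0.16. RPS2P5 (-0.15 ± 0.19) and RPS2P55 (-0.01 ± 0.38) also overlapped.

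RPL32P3 (chr3:129101765-129118498) is a copy of the large-subunit gene RPL32 and the 1 member annotated as a transcribed unprocessed pseudogene. It was at 8.87, 11.5 and 8.77 CPM in siOTP and 10.5, 7.94 and 9.81 CPM in siRPS19, so its groups overlapped. RPL32 fell, by 0.83 on the log2 scale, and the log2 ratio of RPL32P3 to it differed by 0.79 ± 0.20. RPL23AP7 (chr2:114368079-114384667) is a copy of RPL23A, whose protein lies at the tunnel exit. It was at 7.00, 6.38 and 6.60 CPM in siOTP and 6.89, 7.11 and 6.37 CPM in siRPS19, again with overlapping groups. Its ratio to RPL23A differed by 0.56 ± 0.09, while RPL23A had a log2 fold change of -0.53.

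RPL5P8 held 41, 38 and 39 counts in siOTP and 35, 45 and 42 in siRPS19. RPL5 was at 349, 368 and 354 CPM in siOTP and 203, 217 and 212 CPM in siRPS19, and the ratio of RPL5P8 to RPL5 differed by 0.51 ± 0.13. For the closer copy RPL5P1, which had 4 mismatches in the printed stretch, the level was 2.64, 2.89 and 2.99 CPM in siOTP and 1.65, 1.30 and 1.45 CPM in siRPS19. RPL5P1 fell (edgeR adjusted p = 1.01e-04) and differed from RPL5 by -0.19 ± 0.13, with overlapping ratios. RPS7P14 (0.44 ± 0.15, 122 counts) and RPL13AP3 (0.38 ± 0.13, 465 counts) completed the 6 highest pairs that did not overlap. The other 5 relatively higher pairs were RPS7P1, RPL23AP79, RPL13AP5, RPL24P4 and RPL13P12, with differences from 0.08 to 0.29.

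**Figure D3:**
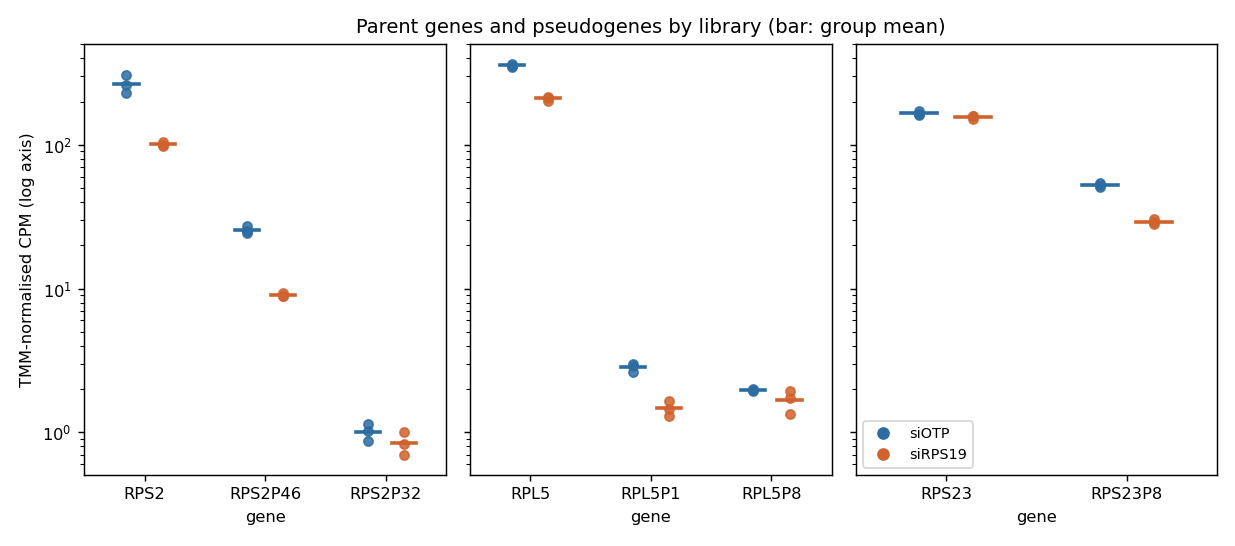
Points are TMM-normalised CPM (log axis) in single libraries for RPS2, RPL5, RPS23 and copies of each, with a bar at the mean of each group of 3. RPS2P46 and RPL5P1 are lower in siRPS19 like their parents, RPS2P32 and RPL5P8 are not separated, and RPS23P8 is separated while RPS23 lies close together.

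Within families of 4 members the copies spread to different degrees. The 4 RPS2 copies had log2 fold changes from -1.54 to -0.26, with RPS2 at -1.40. The RPL13A copies ran from -0.53 to -0.25 and the RPS7 copies from -0.71 to -0.38, in each family above the parent, at -0.71 for RPL13A and -0.82 for RPS7. The RPS4X copies ran from -0.65 to -0.24, on both sides of RPS4X at -0.50. Among the families of 3, RPL4 copies lay within -1.07 and -1.02, while RPL23A copies ran from -0.67 to 0.03.

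The share of a member's sequence near its parent moved with the agreement between copy and parent. Identity to the parent's coding sequence over the aligned part ran from 78.7% to 100%, with a median of 96.2%, and 2 members, RPL41P1 and RPL41P2, were identical there. As a measure for reads of 50 bases, each member's transcripts were cut into all windows of 50 bases, and a window counted as near when it matched the parent's transcripts with at most 2 mismatches. Of the members matched, 8 had no window that matched exactly and 15 had at least 50% of windows exact. A split at 50% near windows was chosen after the values were seen, so its values are a description. The 45 members above it had a median absolute difference from the parent of 0.092 and an r of 0.87 with the parent's log2 fold change, and 39 of them fell. The 23 below it had a median absolute difference of 0.15 and an r of 0.24, and 15 of them fell. Of the 45, 37 were within 0.25 of the parent, and of the 23, 13 were. The near share is also low where a transcript is much longer than the copied part, as in RPS10P7 with 6.54% near windows and 94.9% identity. All members copied from RPL3, RPL10A and RPL7A, parents that fell far, are above the split, so the values of r span different ranges.

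Direction also differed between these sets as counted. In the 45 near members 7 pairs did not overlap, of which 4 were relatively lower and 3 relatively higher. In the 23 others 7 pairs did not overlap, and all 7 were relatively higher. The 85.8% for every tested gene covers both directions and all pairs, so no background is given for either set or direction. Direction by itself therefore says little about the pseudogenes. Depth differed as well, with a median of 1041 counts in the near members and 405 in the others, and its part in these values was not tested. Single members went against the pattern. RPS4XP22 (chr19:9793970-9794749), with 14.5% near windows and 90.2% identity, was at 10.8, 12.4 and 12.0 CPM in siOTP and 8.35, 9.11 and 8.61 CPM in siRPS19. Its ratio to RPS4X differed by 0.07 ± 0.06, while RPS23P8, with 100% near windows, differed most of the relatively lower pairs.

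**Figure D4:**
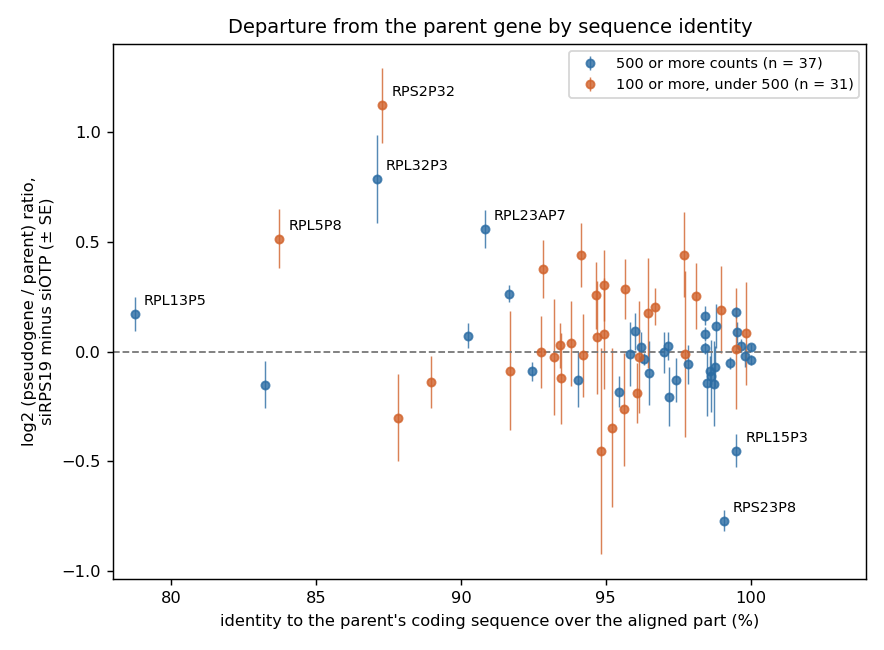
Each point is 1 of 68 pseudogenes; the y axis is the difference of the log2 ratio to the parent, siRPS19 minus siOTP, with SE bars, and the x axis is identity to the parent's coding sequence. The 4 highest points, RPS2P32, RPL32P3, RPL23AP7 and RPL5P8, lie below 92% identity, and the lowest point, RPS23P8, at 99.1%. Identity covers the aligned coding part only. Of all windows of the 4 highest, in that order, 12.6%, 2.39%, 3.59% and 6.92% are near the parent.

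By annotated type, 57 members were processed pseudogenes, 10 transcribed processed pseudogenes and 1 a transcribed unprocessed pseudogene. Of the 57, 48 fell, with a median log2 fold change of -0.81 and a median difference from the parent of -0.0037. Of the 10, 6 fell, with medians of -0.37 and 0.13. RPL23AP79 (chr19:59084870-59111168), a transcribed processed pseudogene that release 29 names CENPBD1P1, was at 47.9, 42.8 and 48.8 CPM in siOTP and 37.0, 39.1 and 39.3 CPM in siRPS19. It fell by 0.27 on the log2 scale, but its log2 fold change was 0.012 on library totals, and 1.40% of its windows were near RPL23A. RPL13P5, with the lowest identity, likewise fell by 0.27 and was at 0.013 on library totals.

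Some members lay inside the span of another tested gene, 18 in all and 5 of them on the same strand, and these were set against that gene. Of the 18, 15 fell, with a median log2 fold change of -0.80. Of the surrounding genes 11 rose, 4 fell and 3 did not pass the test, with a median of 0.22. Outside such genes 41 of 52 members fell, with a median of -0.67. The log2 ratio to the surrounding gene did not overlap between groups in 16 of 18 pairs, 15 of them with the pseudogene relatively lower and 1 with it relatively higher. Of every tested gene set against the same surrounding genes 78.6% did not overlap, so this count by itself says little about the pseudogenes. In log2 fold change 16 of the 18 were nearer to the parent than to the surrounding gene. Over these 18 points r was 0.85 with the parent and -0.31 with the surrounding gene, as a description of genes that share libraries.

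RPL7AP6 gave the widest gap. It lies inside SMOC1, a gene of a secreted calcium-binding matrix protein, which rose from 20.1 ± 1.63 to 67.8 ± 11.2 CPM (SD, n = 3; log2 fold change 1.75). RPL7AP6 had a log2 fold change of -1.47, beside -1.33 for RPL7A. RPL10AP6 (-1.62) lies inside PTPRG, a receptor tyrosine phosphatase gene, which rose by 0.72.

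Of the 6 most counted members inside another gene 5 are given here, and of these RPL4P4 lies in the kinase gene MAP3K13. MAP3K13 was at 20.4 ± 0.367 CPM in siOTP and 21.0 ± 0.273 CPM in siRPS19 (SD, n = 3), and the log2 ratio of RPL4P4 to it differed by -1.06 ± 0.03. RPL41P2 differed from HERC2, a ubiquitin ligase gene that rose by 0.43, by -1.40 ± 0.15. RPL10P3, which fell by 0.48 on the log2 scale like RPL10 by 0.51, lies on the same strand as ASTN2, which rose by 1.21. RPL9P7 differed from APOO, a mitochondrial inner membrane gene on the same strand, by -0.64 ± 0.05. RPS7P1 differed from RP11-192H23.4 by -0.83 ± 0.25. The ratio of RPS3AP26 to BAIAP2L1 overlapped between the groups.

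The pseudogenes of RPS19 itself were hardly counted, and none reached 100 counts. RPS19P3 (chr14:35037895-35038335) is printed beside RPS19 because the siRNA pool targets its parent.
RPS19: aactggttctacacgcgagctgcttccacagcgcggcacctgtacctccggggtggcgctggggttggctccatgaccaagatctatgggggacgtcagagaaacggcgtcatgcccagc
RPS19P3: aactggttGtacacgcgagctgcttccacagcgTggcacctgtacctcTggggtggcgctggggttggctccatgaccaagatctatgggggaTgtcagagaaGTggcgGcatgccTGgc
RPS19P3 has 9 mismatches in these 120 bases and an identity of 94.1% over the coding sequence. It held 5, 4 and 5 counts in siOTP and 1, 5 and 2 in siRPS19. The groups overlapped. The ratio of the summed counts, siRPS19 over siOTP, scaled by each group's summed library depth with TMM factors, was 0.468. Its 95% exact interval of 0.170 to 1.20 covers counting error only. The log2 ratio of RPS19P3 to RPS19 was higher in siRPS19 by 3.95 ± 0.69 (SE, exact two-sided permutation p = 0.1), since RPS19 had a log2 fold change of -5.14 ± 0.09. RPS19P1 held 3 counts, 2 of them in siOTP, and RPS19P6 held 0. Their log2 ratios to RPS19 differed by 4.33 and 4.86, each also with p = 0.1 in that permutation test. Even a copy with 0 counts gives such a value, so these ratios reflect the fall of RPS19 and say nothing about its pseudogenes. None of the 3 was among the tested genes. Which sequences the siRNA pool holds was not analysed here.

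Pseudogenes of other strongly expressed genes were counted in the same way, from 31 parents such as EEF1A1, PTMA and NPM1. Of 66 with at least 100 counts, 62 fell and 0 rose (0 at an unadjusted p under 0.05, and 0 by DESeq2 or limma-voom), against the 38.9% of all tested genes that fell and 39.5% that rose. Their median log2 fold change was -1.08, below the -0.71 of the ribosomal protein pseudogenes. The absolute gap between the log2 fold changes of copy and parent had a median of 0.094 in these families and 0.12 in the ribosomal protein pseudogenes. The correlation with the parent was 0.70 over the 66 and 0.75 over the 70. The 2 sets were not tested against each other.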

How the data were processed

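RNA-seq libraries of A549 cells, 3 per group, were analysed from the deposited values. The authors deposited raw read counts per gene for each library. TopHat2 (2.0.8b), HTSeq, DESeq, R (3.0.2) and hg19 are named in the submitters' processing notes. Neither the counting mode, the annotation release, strand marking nor the handling of reads with several alignments is given in the sources used here. The deposited RPKM table holds 1 RPKM value per group, which was used for description only. Its deposited mean counts (a signal per group) equalled the library mean plus 1 in 100% of genes (checked in siOTP), within a relative tolerance of 0.01. Other deposited columns (gene names, positions, transcript lengths) were used to name and place genes. Of 63152 genes counted, 423 are not in that table. Entries that name no gene stayed out of library sizes and tests (reads outside genes 3.39% to 6.36%, ambiguous reads 7.50% to 8.24% of entries).

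Genes were filtered with filterByExpr (minimum count 10, minimum total 15), scaled by TMM and tested with edgeR 4.0.16's robust quasi-likelihood test in R 4.3.3, with Benjamini-Hochberg adjustment and a threshold of 0.05. Adjusted p-values are from this test. Ratios to parent or surrounding genes added 0.5 to both counts. DESeq2 1.42.0, limma-voom (limma 3.58.1), other scalings, filters, a replicate block and left-out libraries were alternatives. The fit was tested on simulated data in which few genes changed. That setting does not cover the scaling of these data, where most tested genes passed the test. Sequences were compared with Biopython 1.88 on GENCODE release 29 transcripts (GRCh38), matched by gene ID; positions are hg19.

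Members, gene lists and rules were chosen with earlier results of these data known. Named are RPS19 and its pseudogenes, the 8 most counted members, the 6 largest falls and rises, the 6 highest and lowest differences from the parent among pairs that did not overlap, the 6 most counted members inside another gene, members next to the threshold, and families of 4; others were named after their values were seen. Some genes under these rules are not reported here. Same-numbered replicates of both groups carry the same date in the sample descriptions, which pairs them; what was done on that date is not stated. The deviations of paired libraries from their group means correlated over genes at 0.055, -0.095 and 0.045. Replicates of 1 group differed by more than sampling noise (chi-square per degree of freedom 4.40 to 16.6).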

Additional observations from a re-analysis of the deposited data

Results flagged for a closer look

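Reads that fell outside annotated genes, which enter no comparison of the pseudogenes, made up a larger share of entries in siRPS19 (mean 5.81% ± 0.622, SD, n = 3) than in siOTP (3.64% ± 0.232). They are given because they are a signal outside the gene counts that lies above the level in the control libraries. Their part in the values of the pseudogenes was not tested.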

How the results depend on the processing

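With TMM, 56 of 70 members fell. The alternatives to that scaling, filter and test gave 39 (library totals) to 57 (no filter), and DESeq2 and upper quartile scaling each gave 48. Leaving out 1 library gave 50 to 55 lower and 0 higher. On library totals 1 member rose (RPL23AP7), and the log2 fold changes of RPL23AP79 and RPL13P5 turned to 0.012 and 0.013. With a threshold of 50 counts 61 of 86 members fell and 2 rose (RPS11P6 with 65 counts and RPL9P29 with 52), and with 500 counts 34 of 38 fell. With the replicate block, which keeps the pairing by date, 56 members fell, 1 call being lost and 1 gained; by pairs of libraries, 24 copies kept 1 sign against the parent, where 15 did not overlap in the unpaired comparison. That count was 37 with the summed ribosomal protein genes as denominator, 17 with a prior count of 5, and 19 to 27 with 1 library left out, where fewer libraries make overlap rarer. No shares over all tested genes are given for these counts of ratios. For RPS19P3 the difference from RPS19 was 3.31 to 4.49 with 1 library left out, a range that also reflects the fall of RPS19. Depth limits single members: of the 14 that did not pass the test, 10 had under 500 counts.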
